A study of Caenorhabditis elegans with 10 samples.

Results

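The genes described here are 7 genes of the hypoxia response of Caenorhabditis elegans, measured in whole young adult worms with a defect of the mitochondrial respiratory chain. They are the 3 regulators hif-1, egl-9 and vhl-1 and the 4 targets rhy-1, phy-2, nhr-57 and rips-1. They were chosen by name: a probe set was taken where the array annotation gave exactly 1 gene symbol and that symbol was one of the 7. Each of the 7 genes had 1 such probe set, so 7 probe sets of the 22548 tested (17138 named genes) are described. The probe sets of hif-1 and egl-9 each list 2 gene identifiers under the same symbol and were counted as naming 1 gene. A further probe set that lists both oac-54 and rhy-1 was not used for rhy-1.

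The study compared 5 arrays of worms carrying gas-1 (fc21) with 5 arrays of the N2 (Bristol) wild type, all young adults sorted by size and grown on OP50 E. coli. The gene gas-1 encodes a subunit of complex I, the first enzyme of the respiratory chain, and the labels describe fc21 as a missense mutation. Each array is labelled as a separate biological replicate, of 1000 sorted worms, with RNA taken from aliquots of 500 worms or more. Both groups are whole worms, so a lower or higher value can come from fewer cells of a tissue or from less RNA per cell, which cannot be told apart. Eggs from bleached adults gave synchronous cultures. Values are the deposited intensities, read as log2 from their range, differences are mutant minus wild type on that scale, and a gene was called higher or lower at a limma adjusted p under 0.05 over all 22548 probe sets.

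HIF-1 is a transcription factor that switches on genes for life at low oxygen. When oxygen is present, EGL-9, a prolyl hydroxylase, marks HIF-1, and VHL-1, the part of a ubiquitin ligase that recognises the mark, sends it to degradation, so control is largely on the protein and not on the hif-1 transcript. RHY-1, a membrane protein of the acyltransferase kind, restrains HIF-1 and is itself made from a HIF-1 target gene. In worms, HIF-1 also takes part in the response to hydrogen sulfide, which the cell can make from cysteine.

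The 10 arrays correlated at 0.946 to 0.996 across probe sets, and their medians were between 6.22 and 6.61. Both probe sets of gas-1 were higher in the mutant, by 0.67 (SE 0.12, limma adjusted p = 0.00567) and 0.72 (SE 0.15, limma adjusted p = 0.0108), and a missense allele means that the level does not check the labels. Of 4 markers of the adult stage (vit-2, vit-6, col-19 and col-140) none was called, and all lay between 11.52 and 13.75. All 4 had a positive difference (0.10 to 0.41). On col-140 the groups did not overlap, where this held for 12.9% of all probe sets. In wild-type replicate 5 col-19 was at 11.52 and col-140 at 12.54, against 12.72 to 12.80 and 13.18 to 13.21 in the other wild-type arrays. Mutant replicates 4 and 5 and wild-type replicates 1 and 5 stood apart from the other arrays of their groups in an earlier reading of these data, and results that rest on them are given with and without them. Leaving out arrays picked in this way narrows the spread within groups, so p-values from the fit without all 4 are descriptive. That fit called 2317 probe sets higher and 2522 lower, against 1701 and 964 with all 10 arrays. Among the marker lists, sperm markers had the lowest median difference (-1.74): their mean was 2.35 to 2.48 below the wild-type mean in mutant replicates 1 to 3, 0.59 below it in mutant replicates 4 and 5, and 1.63 below it in wild-type replicate 5 (log2). Of the 6 sperm markers spe-11 was called lower, and spe-9 alone had a positive difference (0.30). The log2 of the summed intensity of the sperm markers was 8.96 to 12.12 in the mutant and 10.44 to 13.33 in the wild type. Of 5 markers of neurons snb-1 was called higher (0.34) and unc-64 was not (0.65). The neuron markers rab-3, ric-4 and unc-119 had negative differences, and the list median was -0.14. Limma called 0 of 6 markers of oocytes and embryos and 0 of 4 of the intestine. Over all probe sets, 7.54% were called higher and 4.28% lower. None of the markers was listed at 0, and their part in the differences of the 7 genes was not tested.

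Most of the HIF-1 targets rose in the mutant, and none of the regulators passed the test. Of the 4 targets, 3 were called higher in the mutant, where 7.54% of all probe sets were called higher. They were rips-1 (7.92-fold), nhr-57 (1.88-fold with its wild-type values raised to a background level) and rhy-1 (1.56-fold). None of the 4 was called lower, where 4.28% of all probe sets were, and 11.8% were called in either direction. Of the 3 regulators 0 were called by limma in either direction. One of the 3, vhl-1, had an unadjusted p under 0.05. On all 4 targets every mutant array was above every wild-type array, and on all 3 regulators the groups overlapped. The groups did not overlap on 12.9% of all probe sets. Because the genes were listed with earlier results of these data known, these counts carry no test of their own, and whether targets and regulators differ was not tested.

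**Figure D1:**
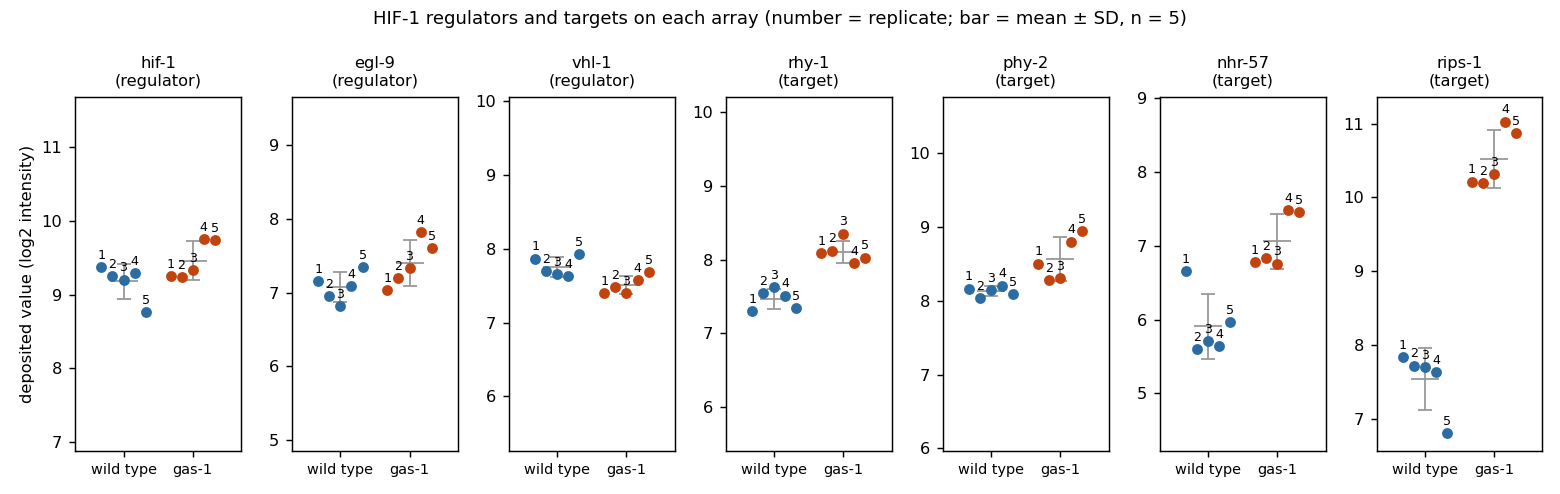
Deposited log2 intensity of the 7 genes on each of the 10 arrays, wild type on the left and gas-1(fc21) on the right of each panel, with the replicate number above each point and grey bars for the mean ± SD (n = 5). Each panel spans the same number of log2 units, so distances can be compared between panels and heights cannot. The mutant points of rips-1 (10.19 to 11.03) lie far above its wild-type points (6.81 to 7.84), and those of vhl-1 lie slightly lower than the wild type.

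Among the regulators, hif-1 encodes the oxygen-sensitive subunit of the factor. Its values were 9.25, 9.24, 9.33, 9.76 and 9.74 in mutant replicates 1 to 5 and 9.37, 9.25, 9.20, 9.30 and 8.76 in wild-type replicates 1 to 5. Mutant replicates 4 and 5 were above all wild-type arrays, the other 3 mutant arrays lay within the wild-type range, and wild-type replicate 5 was low. The means were 9.46 ± 0.26 and 9.18 ± 0.24 (SD, n = 5), a difference of 0.28 (SE 0.15, 95% interval -0.05 to 0.62, limma adjusted p = 0.277, exact permutation p = 0.175). Without the 4 arrays that stood apart the difference was 0.02 (limma adjusted p = 0.874), and without mutant replicates 4 and 5 it was 0.09 (limma adjusted p = 0.791). It was 0.18 without wild-type replicate 5 (limma adjusted p = 0.426).

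The prolyl hydroxylase gene egl-9, itself reported as a HIF-1 target, was at 7.04, 7.20, 7.33, 7.81 and 7.60 in mutant replicates 1 to 5 and at 7.16, 6.95, 6.82, 7.09 and 7.35 in the wild type. The groups overlapped, and mutant replicates 4 and 5 were again the highest arrays. The means were 7.39 ± 0.31 and 7.07 ± 0.20 (SD, n = 5), a difference of 0.32 (SE 0.16, 95% interval -0.02 to 0.67, limma adjusted p = 0.229, exact permutation p = 0.103). Without mutant replicates 4 and 5 the difference was 0.11 (limma adjusted p = 0.714), and without all 4 arrays that stood apart it was 0.24 (limma adjusted p = 0.164).

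The ubiquitin ligase gene vhl-1 was the only 1 of the 7 genes with a lower mean in the mutant. It was at 7.40, 7.49, 7.40, 7.57 and 7.69 in mutant replicates 1 to 5 and at 7.87, 7.69, 7.65, 7.63 and 7.93 in the wild type. Of the 5 mutant arrays, 4 lay below every wild-type array, and mutant replicate 5 lay inside the wild-type range. The difference was -0.25 (SE 0.09, 95% interval -0.44 to -0.05), with means of 7.51 ± 0.12 and 7.76 ± 0.13 (SD, n = 5). It did not pass over all probe sets (limma adjusted p = 0.105, unadjusted p = 0.0188, exact permutation p = 0.0238). It passed under quantile normalization (-0.34, limma adjusted p = 0.0369) and without the 4 arrays that stood apart (-0.23, limma adjusted p = 0.0442), and it was -0.15 without wild-type replicates 1 and 5 (limma adjusted p = 0.296).

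Among the targets, rips-1 encodes a predicted methyltransferase of the sulfide response and differed most. Its values were 10.22, 10.19, 10.32, 11.03 and 10.87 in mutant replicates 1 to 5 and 7.84, 7.72, 7.70, 7.64 and 6.81 in the wild type. The gap between the lowest mutant array and the highest wild-type array was larger than the range within either group. The means were 10.53 ± 0.39 and 7.54 ± 0.42 (SD, n = 5), so that the mutant was 2.99 higher (SE 0.23, 95% interval 2.47 to 3.50), or 7.92-fold, with a limma adjusted p of 2.26e-05. This was the 29th largest rise of the 22548 probe sets. Without the 4 arrays that stood apart the difference was 2.56 (limma adjusted p = 5e-07).

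The nuclear receptor gene nhr-57, long used as a readout of HIF-1 activity, was at 6.78, 6.83, 6.76, 7.48 and 7.46 in mutant replicates 1 to 5. It was at 6.65, 5.59, 5.70, 5.64 and 5.96 in wild-type replicates 1 to 5, so that wild-type replicate 1 came close to the lowest mutant arrays. The means were 7.06 ± 0.37 and 5.91 ± 0.44 (SD, n = 5), so that the mutant was 1.15 higher as measured (SE 0.23), with a limma adjusted p of 0.0096. A difference at least as large was seen in 1.65% of all probe sets. Without mutant replicates 4 and 5 the difference was 0.88 and was not called (limma adjusted p = 0.0551). With wild-type replicates 1 and 5 left out as well it was 1.15 (limma adjusted p = 2.9e-05). That fit does not restore the call, because its arrays were picked from these same data. On the same arrays, 32 control probe sets for bacterial and yeast sequences had medians of 4.46 to 4.91 in the mutant, 4.46 to 4.71 in wild-type replicates 2 to 5 and 5.31 in wild-type replicate 1. All 5 wild-type values of nhr-57 lay between the median and the 90th percentile of those controls (5.90 to 6.72), and all 5 mutant values lay above that percentile (5.92 to 6.17). The wild-type level of nhr-57 was thus not well above background. With each wild-type array set to the higher of its value and that percentile, the mutant mean was 1.88-fold higher. That figure allows for background and not for the spread between arrays. The sources used here do not say whether any of these controls had been spiked in.

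The acyltransferase-like gene rhy-1 was at 8.08, 8.12, 8.35, 7.95 and 8.03 in mutant replicates 1 to 5 and at 7.30, 7.55, 7.63, 7.51 and 7.35 in the wild type. In contrast to hif-1, phy-2, nhr-57 and rips-1, its values in mutant replicates 4 and 5 were the lowest of the mutant group. The means were 8.11 ± 0.15 and 7.47 ± 0.14 (SD, n = 5), so that the mutant was 0.64 higher (SE 0.10), or 1.56-fold, with a limma adjusted p of 0.0018. A difference at least as large was seen in 5.12% of all probe sets. It passed in all 20 other settings tried, with limma adjusted p from 0.000196 to 0.0311. The probe set that lists both oac-54 and rhy-1 differed by 0.40 (SE 0.17, limma adjusted p = 0.16), and a probe set of oac-54 alone, the gene next to rhy-1 in the RefSeq order, by -0.02 (SE 0.11, limma adjusted p = 0.932).

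The collagen prolyl hydroxylase gene phy-2 had the smallest difference of the targets. Its values were 8.51, 8.28, 8.31, 8.80 and 8.95 in mutant replicates 1 to 5 and 8.17, 8.04, 8.15, 8.21 and 8.09 in the wild type. Every mutant array was above every wild-type array, by a narrow margin for mutant replicates 2 and 3. The means were 8.57 ± 0.30 and 8.13 ± 0.07 (SD, n = 5), a difference of 0.44 (SE 0.13, 95% interval 0.15 to 0.73, limma adjusted p = 0.054, exact permutation p = 0.00794). It passed in 6 of the 20 other settings, among them quantile normalization (limma adjusted p = 0.0486) and leaving out mutant replicate 2 (0.0365) or mutant replicate 3 (0.0412). The difference was 0.24 both without the 4 arrays that stood apart (limma adjusted p = 0.108) and without mutant replicates 4 and 5 alone (limma adjusted p = 0.131).

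Set side by side, the median difference was 0.90 over the 4 targets, 0.28 over the 3 regulators and 0.003 over all probe sets, whose quartiles were -0.14 and 0.17. The targets were on average 1.13, 1.10, 1.17, 1.553 and 1.565 above their wild-type means in mutant replicates 1 to 5, against -0.21 to 0.23 on the wild-type arrays. The regulators were at -0.11, -0.03, 0.01, 0.38 and 0.34 on the same mutant arrays, against -0.11 to 0.13 in the wild type. The regulator mean joins genes with differences of opposite sign: on mutant replicates 1 to 3 hif-1 was inside its wild-type range and vhl-1 was below its own. Both list means were higher on mutant replicates 4 and 5 than on the other mutant arrays. The regulator median, which is the hif-1 difference, was 0.18 without wild-type replicate 5 and 0.13 with array weights. The medians of mutant replicates 4 and 5 over all probe sets were 6.58 and 6.57, against 6.37 to 6.42 in mutant replicates 1 to 3 and 6.22 to 6.61 in the wild type. The list means given here were not corrected for this. With arrays centred on their medians, the median difference was 0.85 for the targets and 0.23 for the regulators. Markers of hypodermis, body muscle, intestine and neurons also had higher list means on mutant replicates 4 and 5. The mean of the 4 hypodermis markers was 0.94 to 1.03 above its wild-type mean in mutant replicates 4 and 5 and -0.23 to -0.12 in mutant replicates 1 to 3, against -0.19 to 0.35 in the wild type. The log2 of their summed intensity was 9.45 to 10.27 in the mutant and 9.65 to 9.85 in the wild type. The hypodermis rise rests on dpy-7, rol-6 and bli-1, and nhr-23 went the other way. On mutant replicates 4 and 5 nhr-23 was at 8.729 and 8.795, against 8.799 to 9.131 on mutant replicates 1 to 3 and 8.966 to 9.215 in the wild type. For the 4 body muscle markers the mean was 0.74 to 0.80 in mutant replicates 4 and 5, -0.28 to -0.13 in mutant replicates 1 to 3, and -0.56 to 0.21 in the wild type. The log2 of their summed intensity was 11.83 to 12.85 in the mutant and 11.46 to 12.31 in the wild type. The intestine markers, with a mean of 0.58 to 0.60 on mutant replicates 4 and 5, were at -0.34 to -0.10 on mutant replicates 1 to 3 and at -0.36 to 0.11 in the wild type, and their summed intensity was 11.6 to 12.63 in the mutant and 11.68 to 12.36 in the wild type (log2). The neuron markers, with a mean of 0.24 to 0.36 on mutant replicates 4 and 5, were at -0.10 to -0.08 on mutant replicates 1 to 3 and at -0.18 to 0.17 in the wild type, and their summed intensity was 11.42 to 11.71 and 11.19 to 11.37. Of the neuron markers, rab-3 was not higher on mutant replicates 4 and 5 (7.417 and 7.525, against 7.387 to 7.759 on mutant replicates 1 to 3). No hypodermis, muscle or intestine marker was called between the genotypes, and the part of these 4 lists in the higher values of mutant replicates 4 and 5 was not tested. Without those 2 arrays the median difference was 0.80 for the targets and 0.09 for the regulators.

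**Figure D2:**
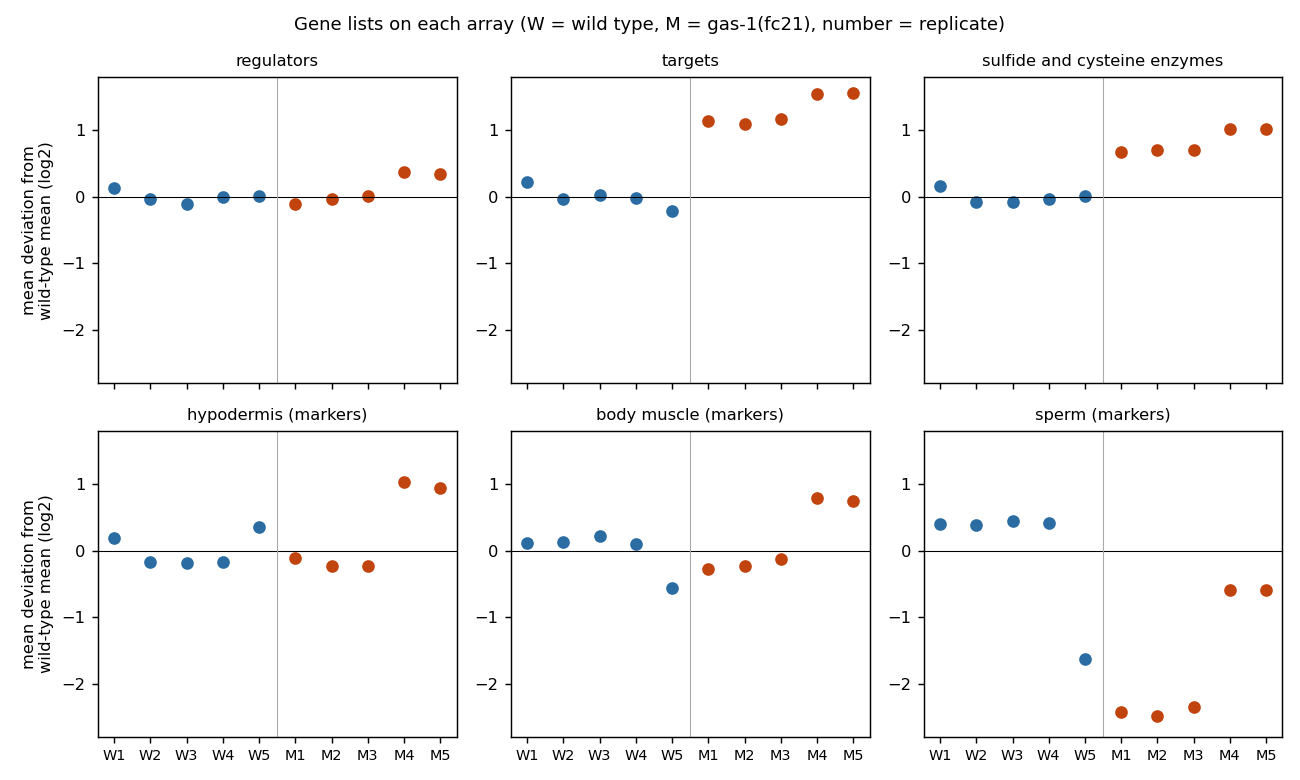
Mean deviation of each gene list from its wild-type mean (log2) on the 5 wild-type arrays (W1 to W5) and the 5 gas-1(fc21) arrays (M1 to M5), with 1 point for each array. Targets and sulfide and cysteine enzymes are above 0.6 on all mutant arrays, and regulators are above the wild-type range only on M4 and M5. On the markers of hypodermis, body muscle and sperm M4, M5 and W5 stand apart. W1 lies among W2 to W4 on body muscle and sperm and above them on hypodermis.

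The rest of the pathway was read from lists chosen by role. In the list of HIF-1 partners and the VHL ubiquitin ligase, 1 of 6 measured genes was called higher and 0 lower by limma, with a median difference of 0.08, where 7.54% of all probe sets were called higher and 4.28% lower. The called gene was cysl-1, a cysteine synthase-like protein that binds EGL-9 and blocks it when sulfide builds up. It was at 8.75, 8.73, 8.78, 9.86 and 9.97 in mutant replicates 1 to 5 and at 7.94, 8.17, 7.99, 8.07 and 7.37 in the wild type. The groups did not overlap, mutant replicates 4 and 5 were highest and wild-type replicate 5 was lowest. The difference was 1.31 (SE 0.28, 2.48-fold, limma adjusted p = 0.014), and the second probe set of cysl-1 gave 1.24 (SE 0.28, limma adjusted p = 0.0172). Without the 4 arrays that stood apart it was 0.68 (limma adjusted p = 0.000674), and with the replicate number as a block the call was lost (limma adjusted p = 0.065). The others, which are the dimer partner aha-1, the ligase subunits cul-2, elb-1 and rbx-1, and swan-1, a partner of EGL-9, had differences of -0.07 to 0.26. The list gene elc-1 was not analysed here. Of 3 further genes of the same transcription factor family, ahr-1, hlh-34 and cky-1, 0 were called by limma and none had an unadjusted p under 0.05.

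Enzymes that make, use or break down cysteine and sulfide were higher in the mutant in most cases. Of 11 measured genes, 6 were called higher, 0 lower and 5 were not called, against 7.54% higher and 4.28% lower over all probe sets. Their median difference was 0.97, and sqrd-2 was not analysed here. The list was drawn up with results for some of its genes known, so its count is not independent evidence of its direction.

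On the side of sulfide breakdown, sqrd-1 encodes the sulfide:quinone oxidoreductase of mitochondria, which passes electrons from sulfide to ubiquinone. It was at 7.67, 7.60, 7.59, 8.73 and 8.77 in mutant replicates 1 to 5 and at 5.93, 5.54, 5.62, 5.66 and 6.65 in the wild type. The groups were apart, although wild-type replicate 5 was higher than the other wild-type arrays. The measured difference was 2.19 (SE 0.31, limma adjusted p = 0.00122), and 1.74 without mutant replicates 4 and 5 (limma adjusted p = 0.00368). Wild-type replicates 1 to 4 were below the 90th percentile of the control probe sets. With those arrays set to it the mutant mean of sqrd-1 was 3.45-fold higher, a figure without sampling error. The sulfite oxidase gene suox-1, which acts at the end of sulfur oxidation, was at 7.997 to 8.24 in the mutant and 7.32 to 7.70 in the wild type, which put the mutant 0.68 higher (SE 0.09), or 1.60-fold, with a limma adjusted p of 0.000774. The persulfide dioxygenase gene ethe-1, which takes the product of sqrd-1 further, differed by 0.50 (SE 0.16, 95% interval 0.15 to 0.86, limma adjusted p = 0.0694), and its groups overlapped.

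On the side of cysteine, cdo-1 encodes cysteine dioxygenase, which oxidises cysteine. It was at 9.61, 9.58, 9.23, 10.34 and 10.22 in mutant replicates 1 to 5 and at 8.13, 8.31, 8.25, 8.28 and 7.98 in the wild type, which put the mutant 1.60 higher (SE 0.20), or 3.04-fold, with a limma adjusted p of 0.000579. The cystathionine gamma-lyase gene cth-2, which releases cysteine, was at 11.20 to 11.55 in the mutant and 10.30 to 10.56 in the wild type, which put the mutant 0.97 higher (SE 0.09), or 1.96-fold, with a limma adjusted p of 6.38e-05. Its relative cth-1 had a similar difference with a wider spread (1.01, SE 0.30, limma adjusted p = 0.0531). In cth-1 mutant replicates 4 and 5 were the lowest of the mutant arrays, at 7.54 and 7.79, and no mutant array overlapped the wild type. The cystathionine beta-synthase gene cbs-1 was at 7.07 to 8.35 in the mutant and 6.04 to 6.91 in the wild type, a difference of 1.30 (SE 0.29, limma adjusted p = 0.0166), which was 1.05 without the 4 arrays that stood apart and 0.84 without mutant replicates 4 and 5. In wild-type replicates 1 and 2 cbs-1 (6.255 and 6.075) lay below the 90th percentile of the controls (6.72 and 6.12). No background limit was computed for its rise.

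The cyanoalanine synthase gene cysl-2, a HIF-1 target that detoxifies cyanide with cysteine, was at 9.09 to 9.96 in the mutant and 8.26 to 8.56 in the wild type. The groups did not overlap, and the difference was 1.08 (SE 0.18, limma adjusted p = 0.00309). Without mutant replicates 4 and 5 it was 0.78 (limma adjusted p = 0.00131). The related genes cysl-3 (0.13, SE 0.07) and cysl-4 (-0.08, SE 0.15) and the second synthase gene cbs-2 (-0.30, SE 0.25) were not called. Whether cysl-2 and its relatives differ in response was not tested.

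**Figure D3:**
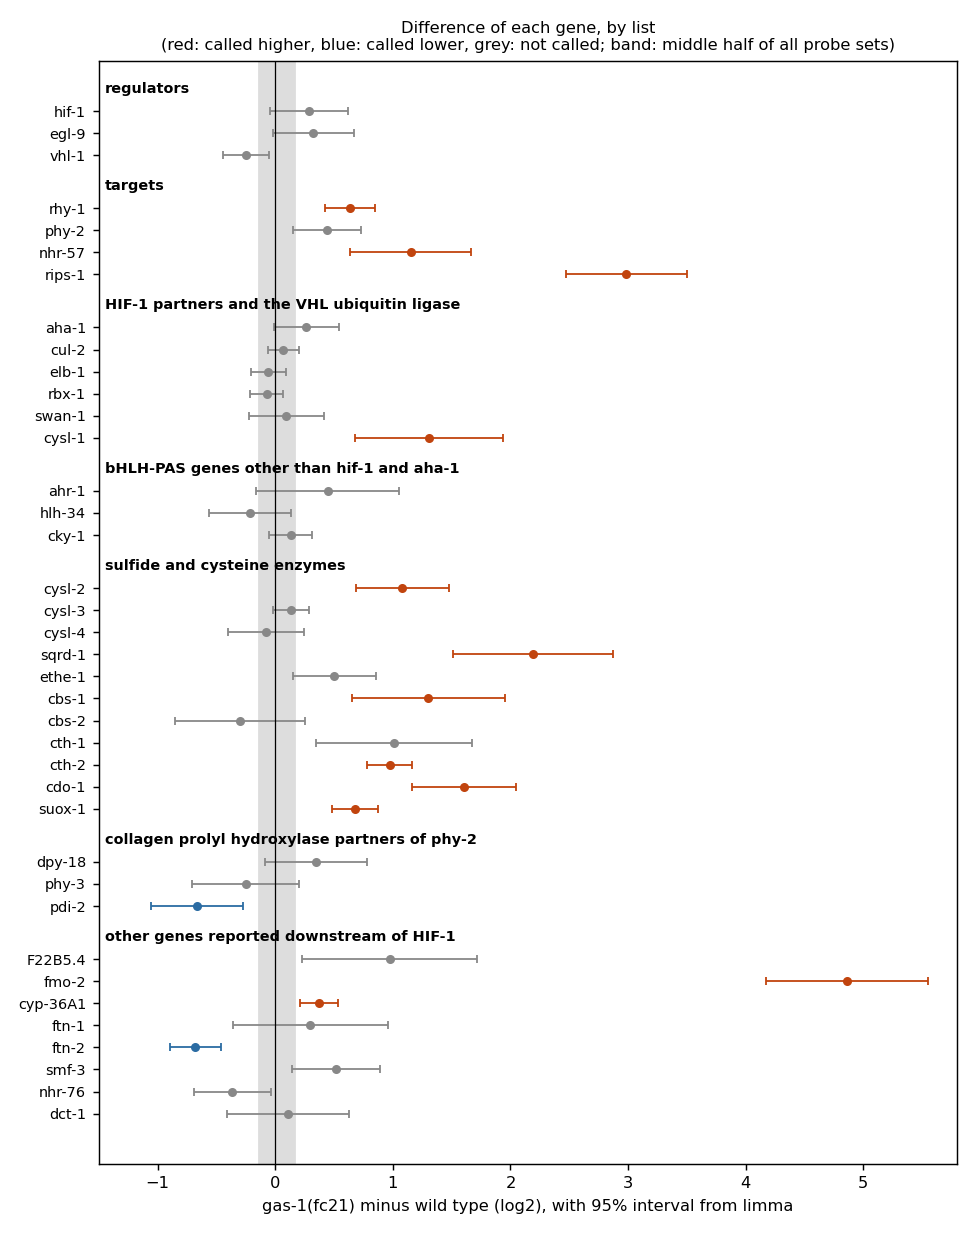
Difference between gas-1(fc21) and wild type (log2) for each of the 7 genes and the 31 other measured pathway genes, with the 95% interval from limma. Red points were called higher, blue points lower and grey points were not called, and the grey band spans the quartiles of all probe sets. The regulators (-0.25 to 0.32) lie just outside the band, and the target phy-2 (0.44) is not far above egl-9 (0.32). Beyond 2 lie rips-1, sqrd-1 and fmo-2, the last 2 of these measured against a wild-type level not well above background.

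Of 8 other genes reported downstream of HIF-1, 2 were called higher and 1 lower, with a median difference of 0.34, beside 7.54% and 4.28% of all probe sets. The flavin-containing monooxygenase gene fmo-2 was at 8.83 to 10.32 in the mutant and 4.37 to 5.51 in the wild type, a measured difference of 4.86 (SE 0.31, limma adjusted p = 6.26e-06). Its wild-type values lay below the 90th percentile of the controls on all 5 arrays. With those arrays set to it the mutant mean of fmo-2 was 10.9-fold higher, a figure without sampling error. Unlike rips-1 and sqrd-1, fmo-2 was lowest in mutant replicates 4 and 5 among the mutant arrays. The cytochrome P450 gene cyp-36A1, reported to act below EGL-9 and HIF-1, differed by 0.37 (SE 0.07, 1.29-fold, limma adjusted p = 0.00917), and this call was lost under quantile normalization (0.30, limma adjusted p = 0.155) and centring on array medians (0.32, limma adjusted p = 0.116). The ferritin gene ftn-2, which stores iron, was lower, at 11.07 to 11.41 in the mutant against 11.60 to 11.99 in the wild type (-0.68, SE 0.10, limma adjusted p = 0.00146). The other ferritin gene ftn-1 had a difference of 0.30 with a wide interval (-0.36 to 0.96, limma adjusted p = 0.605). The counts of this list take no account of the direction reported for each gene. The remaining genes F22B5.4, smf-3, nhr-76 and dct-1 had differences of -0.36 to 0.97 and were not called. Among the partners of phy-2 in collagen hydroxylation, the beta subunit gene pdi-2 was called lower (-0.66, SE 0.18, limma adjusted p = 0.035), and dpy-18 (0.35, SE 0.20) and phy-3 (-0.25, SE 0.20) were not called. The pdi-2 call was lost in 9 of 20 other settings, and its second probe set was not called (-0.55, SE 0.22, limma adjusted p = 0.15). The list gene phy-4 was not analysed here.

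Over all 31 measured pathway genes outside the 7, 9 were called higher, 2 lower and 20 were not called, with a median difference of 0.30, where 7.54% of all probe sets were called higher and 4.28% lower. Without the 4 arrays that stood apart, 14 were called higher and 4 lower, and the shares of all probe sets were 10.3% and 11.2%, so the count of lower genes was near the background. Without mutant replicates 4 and 5 the counts were 10 and 2, where 5.13% and 3.49% of all probe sets were called.

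The position of rips-1 in the RefSeq gene order places it between R08E5.1 and cysl-3, which was looked up after the value of rips-1 had been seen. Of these neighbours, R08E5.1 was higher in the mutant by 1.27 (SE 0.15, limma adjusted p = 0.000371) and cysl-3 was not called. The next gene on each side, R08E5.4 (-0.0044, SE 0.11) and R08F11.1 (SE 0.17), was not called either. Probe sequences were not used here.

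The genes whose variation within the genotypes was most like that of a target were found by Pearson r over the 10 arrays after the mean of each genotype was taken off, a description without a test. For rips-1 these were ucr-2.2, col-157 and grd-10, all at r = 0.993, and 995 of 20809 probe sets had r above 0.9, so the 3 named are few among many. For phy-2 they were tsct-1 (r = 0.987), Y43F8B.2 and C35C5.9 (0.967), with 209 probe sets above 0.9. For nhr-57 they were fbxc-18 (0.988), mnk-1 (0.981) and ftn-1 (0.98), with 105 above 0.9. For rhy-1 they were Y38F2AR.12 (0.942), ent-1 (0.93) and mbug-1 (0.93), with 11 above 0.9. Of these, C35C5.9 was higher in the mutant by 2.16 (SE 0.15, limma adjusted p = 1.25e-05) and mbug-1 lower by 1.10 on the log2 scale (-1.10, SE 0.13, limma adjusted p = 0.000469), while fbxc-18 was not called (-0.02, SE 0.17).

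**Figure D4:**
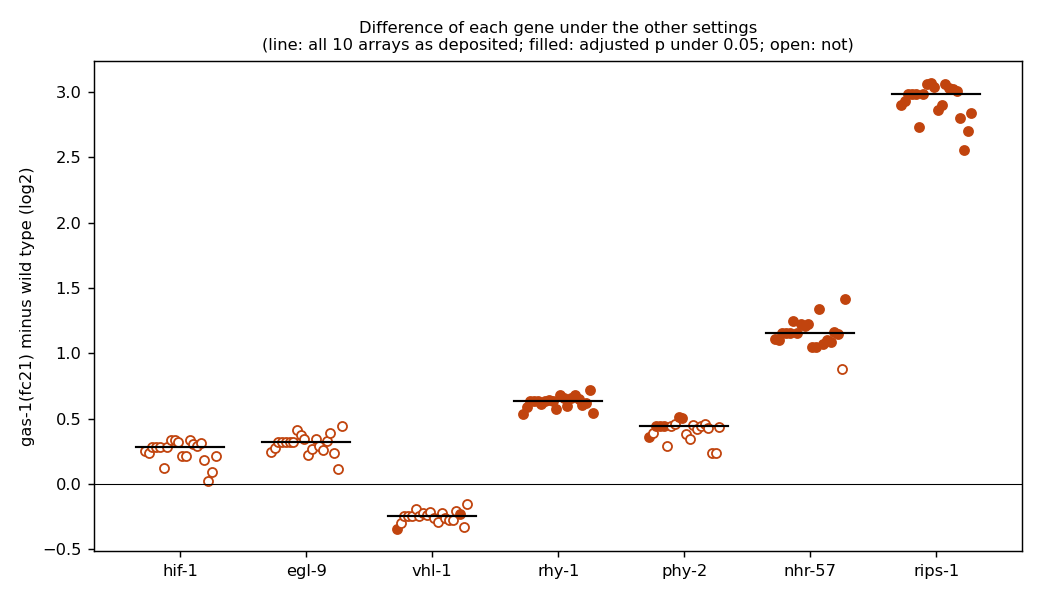
Difference of each of the 7 genes (log2) under each of 20 other settings (1 point each) beside the value from all 10 arrays as deposited (line). Filled points have a limma adjusted p under 0.05. All points of rips-1 (2.56 to 3.07) and rhy-1 (0.53 to 0.72) are filled, 1 point of nhr-57 is open, phy-2 has 6 filled points and vhl-1 has 2, and hif-1 and egl-9 are open throughout.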

How the data were processed

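RNA of whole worms was measured on 10 Affymetrix arrays, 5 for each genotype. Per the labels' protocols, 1 µg of total RNA was used for each. The deposited log2 values were used as given, and that scale was inferred from their range. How the authors corrected, summarised and normalized them is not stated in the labels or headers. Tests covered 22548 probe sets, dim ones included, after removal of 77 controls. Names came from the platform annotation, updated through the RefSeq gene table (WBcel235): 20810 probe sets had 1 gene (20745 found in RefSeq), 843 several and 895 none listed. Coordinates are not printed, since no source names the build of the array.

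Genotype was the only term in limma 3.58.1 (R 4.3.3, lmFit and eBayes), with Benjamini-Hochberg adjustment over all probe sets tested. Exact permutation tests were 2-sided, over 252 ways to assign the arrays, and cannot give a p below 0.00794. The fit was tested on simulated data with independent noise for each probe set, which does not cover variation shared between probe sets. For a gene with several probe sets, the brightest on average was used. No 2 arrays were duplicates: at least 99.7% of values differed between any pair. The number of arrays limits the precision, and p-values measure the spread between samples labelled as biological replicates. Members and lists were chosen with earlier results of these data known. The genes named were the 7 members, gas-1, each called gene of the pathway lists and the 3 genes most like each target. List genes that were not called but are given with values, and the neighbours of rips-1 and rhy-1, were picked after their values were seen. Protein relatives were not listed, as protein sequences were not used here. Alternatives were quantile normalization, median centring, removal of the dimmest 33% or 50%, a trended and robust variance, weighted arrays, a replicate block, averaging of probe sets, and fits without single arrays or without those that stood apart. The background-limited fold changes of nhr-57, sqrd-1 and fmo-2 set wild-type values no lower than the 90th percentile of 32 control probe sets on the same array. They compare means and carry no sampling error. Those fold changes and the fit without wild-type replicates 1 and 5 alone were chosen after seeing the data. The 4 arrays that stood apart were picked from an earlier reading of the same data.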

Additional observations from a re-analysis of the deposited data

Results flagged for a closer look

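In groups of 5 arrays, 1 array lay far from the other 4 in 6 of the 36 groups examined (18 genes in both genotypes), by Dixon's test at the 95% level. The groups share the same arrays, and wild-type replicate 5 had already been picked from these data. The nominal rate of about 1 in 20 is thus no benchmark for this count, which is descriptive. Wild-type replicate 5 was low for hif-1 (8.763, next array 9.203), rips-1 (6.807, next 7.637), cysl-1 (7.368, next 7.939) and cth-2 (10.3, next 10.48), and high for cbs-1 (6.908, next 6.255). Mutant replicate 1 was low for cth-2 (11.2, next 11.48). Without wild-type replicate 5, limma called rips-1, cysl-1, cth-2 and cbs-1 higher as before, and hif-1 was not called (0.18, limma adjusted p = 0.426). The origin of the values of wild-type replicate 5 was not tested.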

How the results depend on the processing

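Of 360 recomputed differences (18 genes, 20 settings each), 339 kept their side of the threshold, 13 lost a call, 8 gained one and 0 changed sign. The calls of rips-1 and rhy-1 held in all 20 settings. The replicate block, in which the number 1 to 5 was a term, gave 1069 higher and 370 lower probe sets in place of 1701 and 964. It left 3 targets called, ended the calls of cysl-1 (1.31, adjusted p = 0.065) and pdi-2 and left 1 pathway gene lower. Deviations of same-numbered arrays correlated at -0.175 to 0.0981. These values show no strong pairing by number, and a weaker pairing was not tested. Array weights gave 2969 and 2535 probe sets and a gap of 0.80 between the target and regulator medians (0.61 as deposited). Leaving out 1 array at a time gave 1176 to 1868 higher and 479 to 1609 lower (479, 493, 480 and 1609 without wild-type replicates 2, 3, 4 and 5), and 1 or 2 lower pathway genes. Without the 4 arrays that stood apart, 2522 probe sets were lower, 1 regulator was lower, 14 pathway genes were higher and 4 lower, the regulator median was 0.0197 and the gap 0.86. Without mutant replicates 4 and 5 the regulator median was 0.0927. Without wild-type replicates 1 and 5, added after seeing the data, 1529 probe sets and 1 pathway gene were lower and the gap was 0.77. Under quantile normalization 1 regulator, vhl-1, was lower. The causes were not tested. Each member has 1 probe set, so averaging probe sets changed no member. Dim probe sets limit what nhr-57, sqrd-1, fmo-2 and cbs-1 show of their wild-type level. Among the genes not called, cysl-4, cbs-2 and cky-1 were also dim.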
